A study of Mus musculus with 6 samples.

Results

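The genes described are 10 growth factor and receptor genes of the VEGF, PDGF and CSF1 families: Vegfa, Vegfb, Vegfc, Vegfd, Pdgfa, Pdgfc, Pdgfd, Csf1, Pdgfra and Pdgfrb. They were chosen by gene name from the 55421 genes of the deposited count table, and all 10 passed the filter on low counts that left 18140 genes for testing. RNA-seq was performed on differentiation day 4 in C2C12 cells, mouse myoblasts that form myotubes in low-serum medium. Both groups carried a stably transfected GFP reporter with 200 CTG repeats in its 3'UTR, transcribed into CUG repeats, as a model of myotonic dystrophy type 1 (DM1). The control group (3 libraries) carried the empty lentiviral vector pLL4.0. The miR-322/-503 group (3 libraries) carried pLL4.0 expressing miR-322 and miR-503. Each group was a separately selected line with its own vector, so a difference between the lines and an effect of the microRNAs cannot be told apart. The comparison asks what miR-322/-503 overexpression does to expression of these genes in DM1 myoblasts.

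VEGF, PDGF and CSF1 ligands are secreted proteins that act through receptor tyrosine kinases. VEGFA drives the growth of blood vessels, VEGFC and VEGFD that of lymphatic vessels, and CSF1 maintains macrophages. PDGF ligands drive division and migration of mesenchymal cells that carry the receptors PDGFRα and PDGFRβ. In skeletal muscle, PDGFRα marks fibro-adipogenic progenitors and PDGFRβ marks pericytes, while muscle fibres are a known source of VEGFA.

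The overexpressed microRNAs are shown because their seeds, bases 2 to 8 counted from the 5' end and printed in capitals, differ at the last base only. Both mature sequences are from RefSeq (GRCm38.p6) and lie on the minus strand of chromosome X, at chrX:53054306-53054327 for miR-322-5p and chrX:53054027-53054049 for miR-503-5p.
miR-322-5p: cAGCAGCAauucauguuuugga
miR-503-5p: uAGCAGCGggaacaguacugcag
In DNA letters, a transcript matches the miR-322-5p seed with TGCTGCT and the miR-503-5p seed with CGCTGCT, and both contain the hexamer GCTGCT. The longest annotated 3'UTR of each gene (GENCODE M21) was searched on the transcribed strand. Of 13416 tested genes with a 3'UTR, 24.4% held TGCTGCT, 4.9% held CGCTGCT and 45.2% held GCTGCT. Among the 10 growth factor and receptor genes, 2 held TGCTGCT and none held CGCTGCT. These were Csf1 and Vegfa, whose sites are printed with 15 bases before the match and 1 after it, and with the match in capitals.
Csf1, chr3:107741608-107741630, minus strand: cccttggtctctttaTGCTGCTg
Vegfa, chr17:46018590-46018612, minus strand: ccattttcttatatcTGCTGCTa
The Vegfa match is followed by an A and the Csf1 match is not.

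The libraries held between 73532084 and 92157388 estimated counts. About 4.0 of these stood for 1 read pair, which gives 18383021 to 23039347 read pairs. No library was a copy of another, as replicates always differed beyond sampling noise. The myoblast label was checked with 12 myogenic markers. Des, the intermediate filament of muscle, lay between 733 and 832 TPM in the control and between 1160 and 1210 TPM in the miR-322/-503 group. Of the 12 markers, 6 were higher and 1 was lower with miR-322/-503 by edgeR's test at an adjusted p under 0.05. By this rule 13.2% of all 18140 tested genes were higher and 15.5% were lower, the shares to set beside the counts of every list below. The largest rises were those of the transcription factor Mef2c (log2 fold change 3.61), the creatine kinase gene Ckm (0.87) and Des (0.65), and the fall was that of the transcription factor Myog (-0.74). The 5 that did not pass included Acta1 (0.09), Myh3 (-0.05) and Mymk (-0.41). The 12 markers summed to between 3190 and 3580 TPM in the control and between 3650 and 3830 TPM with miR-322/-503, and none was at 0 in every library. Most of this sum came from Acta1 (means of 1730 and 1820 TPM) and Des. The part of these marker changes in the results on growth factors was not tested.

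Levels between genes were compared as TPM, a transcript abundance scaled by transcript length and by the total of the library. In the control group, Pdgfrb was highest, between 286 and 289 TPM, followed by Vegfa between 196 and 239 TPM and Csf1 between 170 and 189 TPM. Pdgfc, Pdgfa, Vegfd and Vegfb came next, between 31.7 and 47.8 TPM, and each overlapped its neighbour in the order. Pdgfra (13.6 to 15.4 TPM), Vegfc (7.11 to 7.47 TPM) and Pdgfd (4.03 to 6.18 TPM) were lowest and did not overlap each other. With miR-322/-503, Vegfa stood first, between 195 and 249 TPM, above Pdgfrb between 117 and 130 TPM. Pdgfd moved from rank 10 to rank 7, between 17.4 and 20.9 TPM, where it overlapped Vegfd (14.6 to 18.2 TPM) but neither Pdgfra (6.35 to 9.34 TPM) nor Vegfc (3.49 to 3.70 TPM), which were then the lowest.

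**Figure D1:**
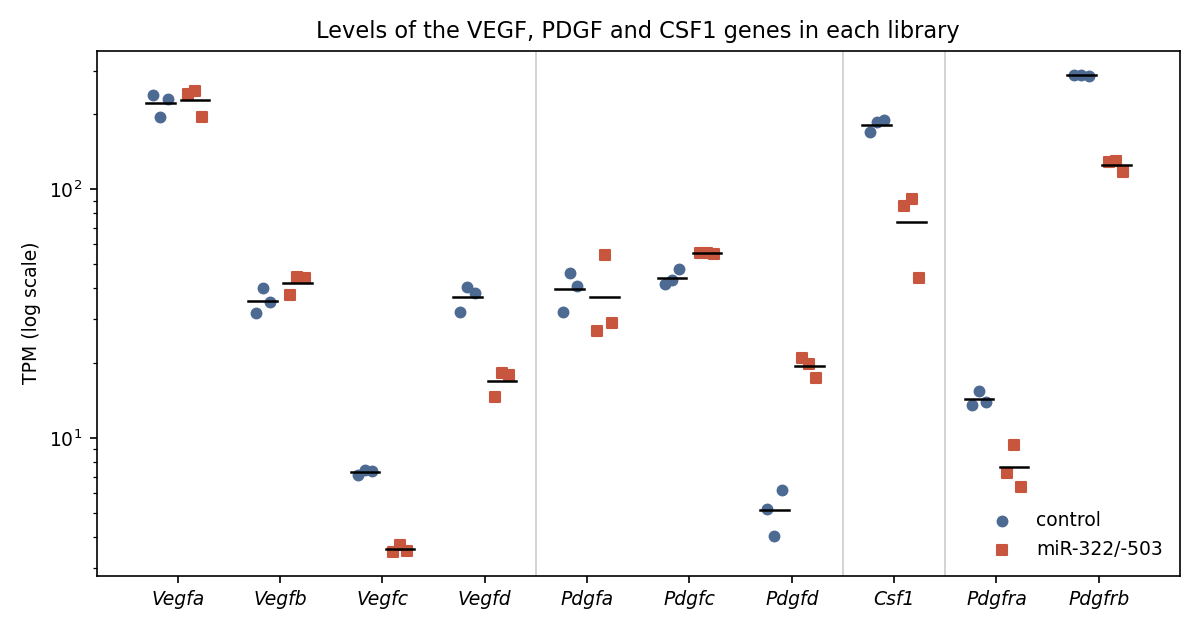
TPM (log scale) of the 10 genes in each library, with control libraries as circles, miR-322/-503 libraries as squares and group means as black bars. Pdgfd is the gene with the largest upward shift, and Csf1, Pdgfrb, Vegfd, Vegfc and Pdgfra have all 3 miR-322/-503 libraries below all 3 control libraries.

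Differences between the groups were tested on the estimated counts, given as CPM (counts scaled to the TMM-normalized library size), with edgeR's quasi-likelihood test and Benjamini-Hochberg adjustment over all 18140 genes. With an adjusted p below 0.05, 2 of the 10 genes were higher (Pdgfd and Pdgfc) and 5 were lower (Csf1, Pdgfrb, Vegfd, Vegfc and Pdgfra) with miR-322/-503, while Vegfa, Vegfb and Pdgfa did not pass. Of all tested genes, 13.2% were higher and 15.5% were lower by the same rule, 28.8% in all. With the added condition of a log2 fold change above 1 or below -1, 1 of the 10 was higher (Pdgfd) and 3 were lower (Csf1, Pdgfrb and Vegfd), beside 4.59% and 5.29% (together 9.87%) of all tested genes. Without miR-322/-503 replicate 1, the lower count under this rule was 2, since Vegfd then stood at -0.99. The median log2 fold change was -0.45 over the 10 genes and -0.01 over all tested genes. The 3 libraries of each group did not overlap for the same 7 genes that passed the test, which held for 21.6% of all tested genes in the upward and 23.5% in the downward direction, or 45.1% in either.

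**Figure D2:**
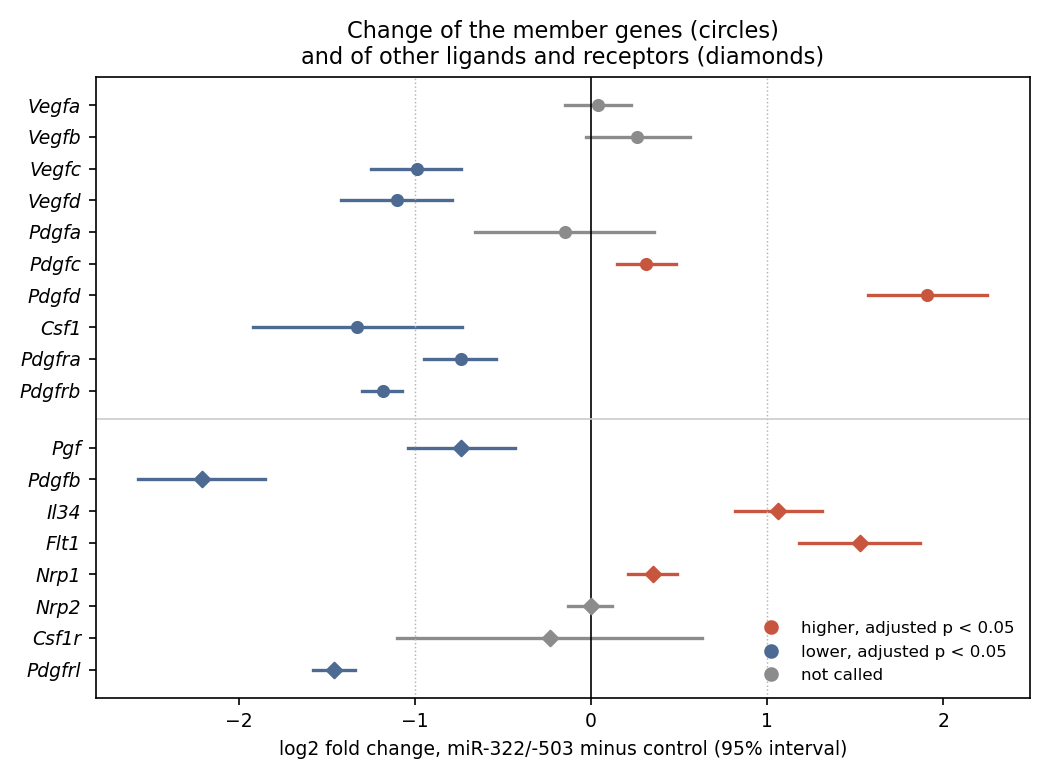
Log2 fold change (miR-322/-503 minus control) with its 95% interval for the 10 genes (circles) and for 8 further ligands and receptors of the same families (diamonds), with dotted lines at -1 and 1. Pdgfd has the largest rise of the 10 at 1.91, Csf1 at -1.33 has the widest interval of the 10, and the intervals of Vegfa, Vegfb and Pdgfa, and of Nrp2 and Csf1r among the further genes, cross 0.

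Among the VEGF ligands, the lymphatic ligands Vegfc and Vegfd both fell, while Vegfa and Vegfb did not pass the test. Vegfd (chrX:164373378-164402650, plus strand) had 33.0, 42.8 and 39.7 CPM in the control and 15.2, 19.1 and 19.5 CPM in the miR-322/-503 libraries. Every miR-322/-503 library was below every control library. The means were 38.5 ± 5.03 and 17.9 ± 2.38 CPM (SD, n = 3). The log2 fold change was -1.10 (SE 0.14, 95% interval -1.42 to -0.79, adjusted p = 0.000842 with edgeR). Vegfc (chr8:54077606-54187096, plus strand) is the closest relative of Vegfd. It had 9.07, 9.35 and 9.0 CPM in the control and 4.2, 4.73 and 4.84 CPM with miR-322/-503, and the groups did not overlap. With means of 9.14 ± 0.184 and 4.59 ± 0.345 CPM, the log2 fold change was -0.99 (SE 0.11, 95% interval -1.25 to -0.74, adjusted p = 0.000468 with edgeR). Vegfc thus lay just short of the limit of -1, and Vegfd just past it.

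Vegfa (chr17:46016993-46032369, minus strand), the main angiogenic ligand, had 259, 259 and 293 CPM in the control and 276, 299 and 257 CPM with miR-322/-503. The groups overlapped, with means of 270 ± 19.7 and 278 ± 21.2 CPM. The log2 fold change was 0.04 (SE 0.08, adjusted p = 0.774 with edgeR), and its 95% interval of -0.15 to 0.23 leaves room for changes of that size in either direction. Vegfb (chr19:6982473-6987651, minus strand), which binds the receptor Flt1, had 19.9, 25.1 and 22.2 CPM in the control and 23.3, 27.6 and 29.9 CPM with miR-322/-503. These groups also overlapped, with a log2 fold change of 0.26 (SE 0.12, 95% interval -0.03 to 0.56, adjusted p = 0.163 with edgeR). Pgf, the placental growth factor and the remaining ligand of Flt1 in this family, fell from 33.8 ± 4.06 to 20.3 ± 2.83 CPM (log2 fold change -0.74, adjusted p = 0.00501 with edgeR).

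The VEGF transcript pool was mostly Vegfa in both groups. The 4 ligands Vegfa to Vegfd summed to 302 ± 15.2 TPM in the control and 291 ± 27.5 TPM with miR-322/-503, a difference smaller than the spread between libraries. Vegfa made up 73.4 ± 4.09% of this sum in the control and 78.3 ± 3.23% with miR-322/-503. Vegfd made up 12.3 ± 1.94% and 5.86 ± 0.989%, and Vegfc 2.43 ± 0.178% and 1.23 ± 0.103%, without overlap between the groups for either gene. The log2 ratio of Vegfa to Vegfb on the TPM scale was 2.64 ± 0.32 in the control and 2.44 ± 0.27 with miR-322/-503. This difference of -0.20 gave p = 0.4 (also 0.4 adjusted over the 3 ratios computed) in a two-sided exact permutation test over 20 splits, which cannot go below 0.1. With 1 library left out it was -0.375 (control replicate 2), -0.324 (miR-322/-503 replicate 1), -0.062 (control replicate 1) or -0.057 (miR-322/-503 replicate 3).

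VEGF receptors were scarce. Kdr, the main signalling receptor for VEGFA, had no count in the control and 4, 4 and 0 estimated counts with miR-322/-503, which is at most 1 read pair. Flt4, the receptor for VEGFC and VEGFD, was at 0 in all 6 libraries. A count of 0 allows up to 12 estimated counts (3 read pairs), which is 0.126 to 0.160 CPM depending on the library and covers counting error only. Flt1 was detected in all 6 libraries and rose from 2.74 ± 0.187 to 7.89 ± 1.12 CPM (log2 fold change 1.53, 95% interval 1.18 to 1.87, adjusted p = 0.000241 with edgeR). The co-receptor Nrp1, which also binds semaphorins, rose by a log2 fold change of 0.35 (adjusted p = 0.00431 with edgeR). Its relative Nrp2 lay between 104 and 119 TPM, with a log2 fold change whose 95% interval was -0.13 to 0.12.

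Endothelial cells express several VEGF receptors, so a list of 9 of their markers, Flt1 and Kdr among them, was examined. Tie1 and Emcn were at 0 in every library, and Pecam1, Cdh5 and Kdr were too low to be tested. Of the 4 markers tested, Flt1 and Tek, the angiopoietin receptor gene (log2 fold change 1.90), were higher and Egfl7 (-1.32) was lower. The 9 markers summed to between 2.26 and 2.78 TPM in the control and between 4.00 and 5.02 TPM with miR-322/-503, and most of this sum came from Flt1, Tek and Egfl7.

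Among the PDGF ligands, Pdgfd rose 3.76-fold, the largest change of the 10 genes, and Pdgfc rose slightly, while Pdgfa did not pass the test and Pdgfb, which is outside the 10 genes, fell. Pdgfd (chr9:6168584-6378850, plus strand) encodes a latent ligand that activates PDGFRβ after a protease removes its CUB domain. It had 7.70, 6.31 and 9.25 CPM in the control and 30.4, 29.8 and 27.4 CPM with miR-322/-503. The lowest miR-322/-503 library was far above the highest control library. The mean rose from 7.75 ± 1.47 to 29.2 ± 1.58 CPM (log2 fold change 1.91, SE 0.14, 95% interval 1.57 to 2.25, adjusted p = 7.75e-05 with edgeR). The median log2 fold change over chromosome 9, which held 1013 tested genes, was -0.27. Within 2 Mb of Pdgfd, 18 other genes were tested, with a median of -0.06, of which 2 were higher and 1 was lower.

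Pdgfc (chr3:81036416-81214040, plus strand) encodes the other latent PDGF ligand, which acts mainly on PDGFRα. It had 68.6, 74.2 and 80.5 CPM in the control and 90.0, 91.1 and 96.4 CPM with miR-322/-503, without overlap. The mean rose from 74.4 ± 5.99 to 92.5 ± 3.39 CPM (log2 fold change 0.31, SE 0.07, 95% interval 0.15 to 0.48, adjusted p = 0.0147 with edgeR). With 1 library fewer, the log2 fold change was 0.257 without control replicate 1, 0.309 without control replicate 2 and 0.284 without miR-322/-503 replicate 3, and the adjusted p with edgeR lay just past the threshold, at 0.0541, 0.0515 and 0.0556. Unlike around Pdgfd, the 16 other genes tested within 2 Mb of Pdgfc had a median log2 fold change of 0.22. Of these neighbours, 4 were higher and none was lower. The part of this region in the rise of Pdgfc was not tested. Pdgfa (chr5:138976014-138997370, minus strand), a ligand of PDGFRα, had 27.2, 35.2 and 36.1 CPM in the control and 23.0, 40.2 and 25.6 CPM with miR-322/-503. Its miR-322/-503 replicate 2 was the highest of all 6 libraries and replicate 1 the lowest, so the groups overlapped (log2 fold change -0.15, 95% interval -0.66 to 0.36, adjusted p = 0.664 with edgeR). Pdgfa shares 2315 bases with 6330403L08Rik on the opposite strand, a gene that rose by a log2 fold change of 0.43 (adjusted p = 0.0112 with edgeR) and whose count reached 47.8% of that of Pdgfa. Whether the counting used strand is not given in the sources used here, so reads of the shared stretch may be assigned to either gene.

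Pdgfb encodes the ligand that binds both PDGF receptors. It fell from 6.56 ± 0.593 to 1.42 ± 0.148 CPM (log2 fold change -2.21, SE 0.15, 95% interval -2.57 to -1.85, adjusted p = 5.03e-05 with edgeR). The summed level of the 4 PDGF ligands was 93.4 ± 7.85 TPM in the control and 112 ± 15.9 TPM with miR-322/-503. Within that sum, Pdgfd went from 5.52 ± 1.19% to 17.4 ± 2.42% and Pdgfb from 4.87 ± 1.35% to 0.806 ± 0.0763%, so the 2 genes were about equal in the control and far apart with miR-322/-503. Pdgfc made up 47.4 ± 2.67% of the pool in the control and 49.8 ± 6.46% with miR-322/-503, with overlapping groups. The log2 ratio of Pdgfa to Pdgfc was -0.17 ± 0.24 in the control and -0.66 ± 0.56 with miR-322/-503 (p = 0.3, adjusted over the ratios 0.4, two-sided exact permutation test). The difference of -0.49 became -0.814 without miR-322/-503 replicate 2 and -0.304 without replicate 1 of that group.

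**Figure D3:**
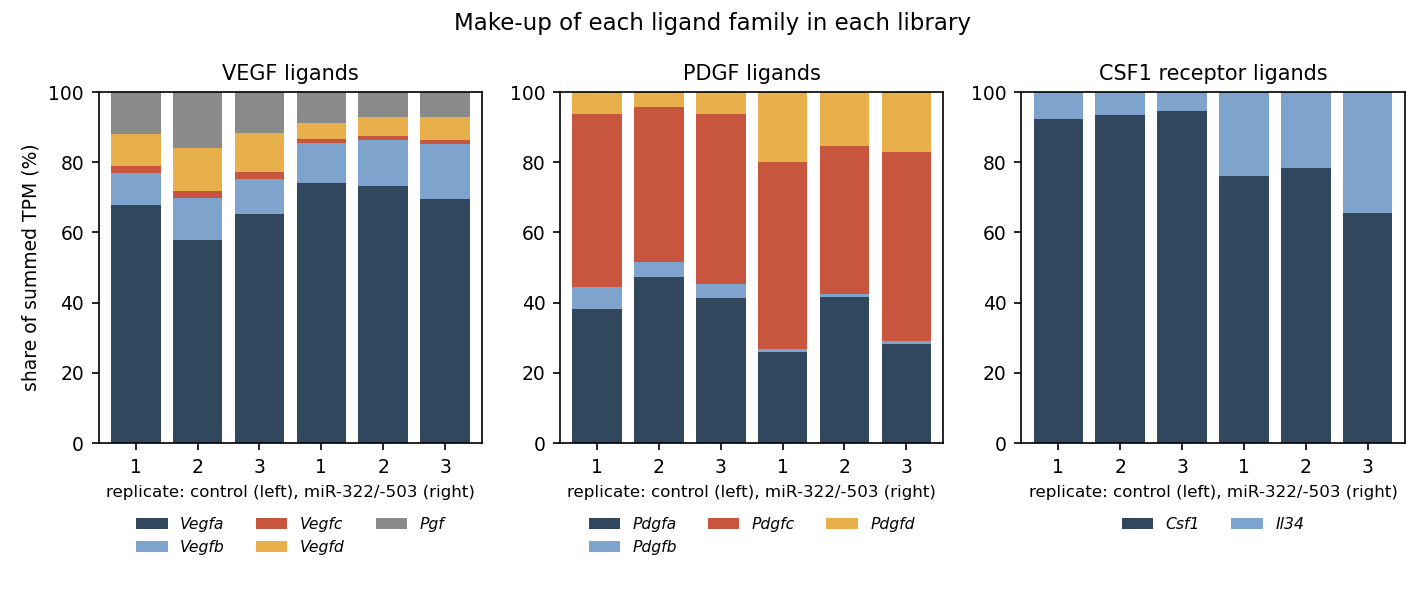
Share of each ligand in the summed TPM of its family (%, stacked to 100) in each library, for VEGF ligands with Pgf (left), PDGF ligands (middle) and CSF1 receptor ligands (right). With miR-322/-503, Pdgfd takes 15.2 to 20% of the PDGF ligand pool against 4.15 to 6.27% in the control, and Il34 takes 21.7 to 34.6% of the CSF1 receptor ligand pool against 5.45 to 7.57%.

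Both PDGF receptors fell. Pdgfrb (chr18:61045150-61085061, plus strand), the receptor for PDGFB and PDGFD, had 811, 828 and 819 CPM in the control and 363, 366 and 353 CPM with miR-322/-503. The libraries of each group lay within a few percent of each other, and the mean fell from 819 ± 8.15 to 361 ± 6.80 CPM, or 44.0% of the control. The log2 fold change of -1.18 had the smallest standard error of the 10 genes (SE 0.05, 95% interval -1.30 to -1.07, adjusted p = 5.5e-06 with edgeR). Pdgfra (chr5:75152292-75198215, plus strand), the receptor for PDGFA and PDGFC, had 34.8, 37.0 and 37.2 CPM in the control and 22.6, 22.8 and 19.6 CPM with miR-322/-503. The groups did not overlap, and the log2 fold change was -0.74 (SE 0.09, 95% interval -0.95 to -0.54, adjusted p = 0.000627 with edgeR).

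The 2 receptors together summed to 302 ± 2.19 TPM in the control and 133 ± 8.58 TPM with miR-322/-503, and Pdgfrb supplied 95.3 ± 0.295% and 94.3 ± 0.860% of these sums. The log2 ratio of Pdgfra to Pdgfrb was -4.33 ± 0.09 in the control and -4.05 ± 0.22 with miR-322/-503. This difference of 0.28 gave p = 0.1 in a two-sided exact permutation test, the smallest p that 3 libraries against 3 allow, and 0.3 after adjustment over the 3 ratios computed. On the CPM scale the difference of the log2 ratio was 0.436, and on the TPM scale without miR-322/-503 replicate 2 it was 0.153. Pdgfrl, a secreted protein that resembles the PDGF receptors but lacks a kinase, fell from 139 ± 2.91 to 50.4 ± 1.24 CPM (log2 fold change -1.46, adjusted p = 2.94e-06 with edgeR).

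PDGFRβ and PDGFRα mark other cells of muscle, so the markers of these cells were examined beside the receptors. Of 8 pericyte and smooth muscle markers, Pdgfrb among them, 7 were tested, of which 4 were lower and 1 was higher with miR-322/-503. The shares over all tested genes were 15.5% lower and 13.2% higher. The largest falls were those of the adhesion gene Mcam (log2 fold change -2.28), Pdgfrb itself and the smooth muscle actin gene Acta2 (-1.11), and the rise was that of Notch3 (1.26). The markers summed to between 5800 and 6030 TPM in the control and between 2680 and 2820 TPM with miR-322/-503, nearly all of it Acta2, and no marker was at 0 in every library. Of 7 fibro-adipogenic progenitor markers, Pdgfra among them, 4 were lower and 1 was higher. The proteoglycan gene Lum (-3.19), Cd34 (-1.58) and Pdgfra had the largest falls, and the matrix gene Dpt (0.94) rose. Their sum ranged from 754 to 1021 TPM in the control and from 688 to 1200 TPM with miR-322/-503, and none was at 0 in every library. Most of this sum came from Dcn and Ly6a, and the width of both ranges came mainly from Ly6a. It had 120, 342 and 285 TPM in the control and 260, 743 and 260 TPM with miR-322/-503. The part of these markers in the falls of Pdgfrb and Pdgfra was not tested. The cultures were of the C2C12 myoblast line, so RNA of these markers does not show that pericytes or fibro-adipogenic progenitors were present. In RNA from whole cultures, fewer cells expressing a marker and less of its RNA per cell cannot be told apart.

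Csf1 (chr3:107741048-107760469, minus strand), the growth factor of macrophages and osteoclasts, had the largest mean fall of the 10 genes, a rank that rested on 1 library. It had 339, 372 and 368 CPM in the control and 169, 177 and 84.8 CPM with miR-322/-503. All 3 miR-322/-503 libraries were below the control, and replicate 3 was far below the other 2 (coefficient of variation 35.6%, against 5.06% in the control). The mean fell from 360 ± 18.2 to 144 ± 51.1 CPM (log2 fold change -1.33, SE 0.25, 95% interval -1.92 to -0.73, adjusted p = 0.00684 with edgeR). Without miR-322/-503 replicate 3, the log2 fold change was -1.06 (adjusted p = 0.000298 with edgeR), smaller than those of Pdgfrb (-1.168) and Vegfd (-1.166) in the same fit.

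Il34, the second ligand of the CSF1 receptor, moved the opposite way. It rose from 6.60 ± 0.640 to 13.8 ± 0.413 CPM (log2 fold change 1.06, SE 0.10, adjusted p = 0.000279 with edgeR). Csf1 and Il34 together summed to 194 ± 8.69 TPM in the control and 99.0 ± 27.4 TPM with miR-322/-503, and Il34 went from 6.5 ± 1.06% to 26.8 ± 6.86% of that sum. Csf1r, the receptor, was at 61, 82 and 41 estimated counts in control libraries and 67, 34 and 58 with miR-322/-503, at 4.0 counts per read pair, and did not pass the test (log2 fold change -0.23, 95% interval -1.10 to 0.63, adjusted p = 0.697 with edgeR). It starts 15536 bases downstream of Pdgfrb on the same strand, and its count was between 0.0593% and 0.218% of that of Pdgfrb. Of 8 macrophage markers, Csf1r among them, Adgre1 and C1qa were at 0 in every library and 4 could be tested. Cd14 (log2 fold change -0.34) and Lyz2 were lower and none was higher. Lyz2 lay between 1.34 and 2.65 TPM in the control and was at 0, 0 and 0.0722 TPM with miR-322/-503. The markers summed to between 20 and 26.3 TPM in the control and between 15.1 and 18.2 TPM with miR-322/-503, mostly Cd14.

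Seed matches were set beside the fold changes as a description. Csf1 held 4 copies of GCTGCT in a 3'UTR of 2111 bases, 1 of them within the TGCTGCT printed above, and Vegfa held 1 in 1865 bases. Csf1 fell and Vegfa did not pass the test, and each held 1 TGCTGCT. Vegfb held 2 hexamers, and Pdgfa, Pdgfc and Pdgfra held 1 each, so that 6 of the 10 genes had at least 1. Of the 5 genes that fell, Vegfc, Vegfd and Pdgfrb had no hexamer, and neither had Pdgfd, which rose. When all annotated 3'UTRs of a gene were searched, Pdgfra also held TGCTGCT, for a total of 3 genes. Over the 13416 tested genes with a 3'UTR, the median log2 fold change was 0.01 with TGCTGCT and -0.02 without it. Outside the 10 genes, Kdr, Csf1r and Flt1 held TGCTGCT, and the site of Flt1, the one of these that passed the test, is shown because Flt1 rose. It lies at chr5:147636534-147636556 on the minus strand.
Flt1: ttttgtggctttataTGCTGCTt
A match is a run of letters in an annotated 3'UTR, and binding of either microRNA was not measured here.

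**Figure D4:**
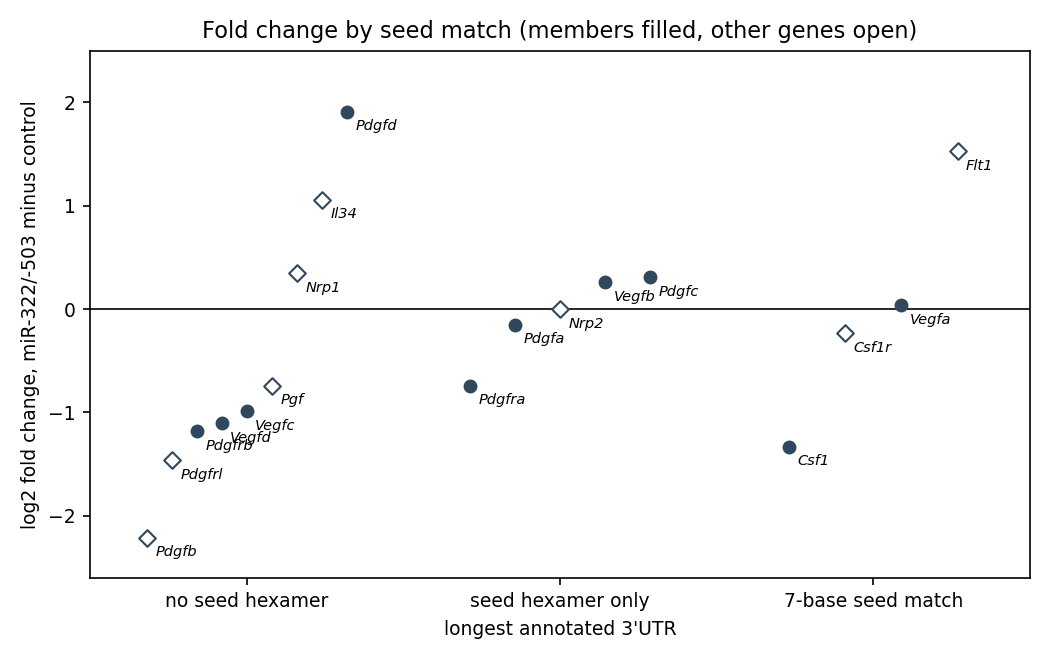
Log2 fold change (miR-322/-503 minus control) of the 10 genes (filled circles) and 8 further ligands and receptors (open diamonds), grouped by whether the longest annotated 3'UTR held no seed hexamer, a hexamer alone or a 7-base seed match; horizontal position within a group has no meaning. Genes without a hexamer run from Pdgfb at -2.21 to Pdgfd at 1.91, and genes with a 7-base match from Csf1 at -1.33 to Flt1 at 1.53.

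Of 16 listed genes for proteases and binding proteins that act on these ligands, 13 were tested, of which 1 was higher (Plau) and 8 were lower, with a median log2 fold change of -0.47. Over all tested genes, 13.2% were higher and 15.5% were lower. Plau, the urokinase that cleaves latent PDGFD, rose from 61.9 ± 3.49 to 169 ± 5.74 CPM (log2 fold change 1.45, adjusted p = 6.07e-06 with edgeR), in the same direction as Pdgfd. St14, the other protease known to cleave PDGFD, was below 0.12 TPM in every library. Plat, the activator of PDGFC and named here after its value was seen, fell by 0.47 on the log2 scale (adjusted p = 0.000676 with edgeR). The largest falls were those of the proprotein convertase Pcsk6 (-2.76), the thrombospondin Thbs1 (-1.45) and the matricellular gene Ccn2 (-1.30). Thbs1 and Ccn2 proteins bind VEGFA.

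Genes of signal transduction below the receptors were mixed. All 38 listed genes were tested, of which 10 were higher and 6 were lower, with a median of 0.05. The shares over all tested genes were 13.2% higher and 15.5% lower. The phospholipase gene Plcg2 rose from 1.64 ± 0.526 to 5.53 ± 0.735 CPM (log2 fold change 1.75), and the kinase gene Fyn rose by a log2 fold change of 0.63. The adaptor genes Gab1 (-1.07) and Nck1 (-0.49) and the PI3-kinase subunit gene Pik3cb (-0.81) fell.

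VEGFA is a known target of the hypoxia response, of which 25 genes were in the files and 24 were tested. With 6 higher and 4 lower and a median of 0.11, the list held changes in both directions, beside 13.2% higher and 15.5% lower over all tested genes. The prolyl hydroxylase gene Egln3 (0.53), the HIF inhibitor gene Hif1an (0.44) and the glycolytic gene Pgk1 (0.33) rose. The carbonic anhydrase gene Car9 (-1.52), the adrenomedullin gene Adm (-0.72) and Higd1a (-0.31), a nuclear gene for a mitochondrial protein, fell.

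Ligands of other receptor tyrosine kinases were compared with the VEGF, PDGF and CSF1 ligands. Of 21 tested, 2 were higher and 9 were lower, with a median of -0.28, and 8 of the falls passed a log2 fold change of -1. Over all tested genes, 13.2% were higher and 15.5% lower, and 5.29% fell past -1. Gas6, the ligand of the TAM receptors, fell from 22.4 ± 1.30 to 1.13 ± 0.318 CPM (log2 fold change -4.29, adjusted p = 1.02e-05 with edgeR). Fgf7, a fibroblast growth factor for epithelia (-3.94), and Hgf, the ligand of Met and an activator of muscle satellite cells (-1.76), also fell further than any of the 10 growth factor and receptor genes. Angpt2, a ligand of the angiopoietin receptor, rose by a log2 fold change of 0.79, less than Pdgfd.

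The genes whose log2 CPM was most alike to that of Pdgfd over the 6 libraries were Fam126a (Pearson's r = 0.9986), Renbp (0.9983) and Il6ra (0.9981), and 967 genes had r above 0.95. Those most alike to Csf1, including its low replicate 3 in the miR-322/-503 group, were Gm2694 (0.999), Plb1 (0.9983) and Dnah14 (0.9969), and 326 genes had r above 0.95. These correlations share the 2 groups and the 6 libraries and are given as a description.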

How the data were processed

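Per the labels and the study's methods, Trim Galore filtered the reads, HISAT2 placed them on GRCm38 and StringTie quantified genes (versions not given in the sources used here). The deposited count table holds unnormalized, whole-number estimated counts, and the deposited library tables hold TPM, FPKM and coverage, a per-base signal. Counts were tested as deposited with edgeR 4.0.16 in R 4.3.3 (filterByExpr, TMM, glmQLFit, glmQLFTest, Benjamini-Hochberg adjustment). About 4 counts stood for 1 read pair, so counting precision is lower than totals imply. TPM was used for levels, shares and ratios between genes, FPKM for an alternative ratio and coverage for counts per read pair. The study describes 3 biological replicates per group, each from 1 stable line, and p-values measure the spread between these libraries. Same-numbered libraries were not treated as pairs. The members and the gene lists were chosen with earlier results of these data known, and the lists were written from general knowledge. After the data were seen, Tcf4 was taken out of the fibro-adipogenic markers, since the muscle marker of that name is the product of Tcf7l2, and Angptl2 and Angptl4 out of the receptor tyrosine kinase ligands, to which they do not belong. Named were the members, the other ligands and receptors, and of each further list up to 3 called genes with the largest rise and 3 with the largest fall, of which 2 genes are not reported here. Alternatives were DESeq2 1.42.0, other scalings and filters, limma 3.58.1 on log2 TPM, counts divided by 4, a replicate block, and leaving out each library. The computations were tested on simulated data. Gene coordinates and 3'UTRs are from GENCODE M21 (GRCm38), in which 55154 of the identifiers were found. The microRNAs themselves could not be followed in these libraries.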

Additional observations from a re-analysis of the deposited data

How the results depend on the processing

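Of 150 alternative values of the 10 genes' log2 fold changes, 145 kept direction and side of the threshold. The fold change of Pdgfc lost its call without control replicate 1, control replicate 2 or miR-322/-503 replicate 3, so that the number of the 10 genes called higher ranged from 1 to 2 when a library was left out. Leaving out a library gave -0.019 to 0.099 for Vegfa, never called and reversed without miR-322/-503 replicate 2, and -0.434 to 0.005 for Pdgfa, never called and reversed without miR-322/-503 replicate 1. The 5 genes called lower passed the test in every alternative run. With a log2 fold change beyond 1 added, 2 to 4 were called lower when a library was left out, since Vegfc and Vegfd lie close to that limit. Over all genes, 391 were higher and 566 were lower beyond that limit with limma on log2(TPM + 1), against 832 and 959, where the pseudocount shrinks folds of low genes (816 and 1000 with a pseudocount of 0.1). Same-numbered libraries showed correlations of deviations of 0.131, 0.069 and 0.045, not all above 0.1, so they were not treated as pairs. A replicate block gave 2667 higher and 3066 lower genes against 2401 and 2817, and the 10 genes still gave 2 higher and 5 lower. Other scalings moved the median of all genes by less than 0.1. Depth limits Kdr, Flt4 and Csf1r, whose counts were the lowest of the ligands and receptors.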
